A study of Mus musculus with 4 samples.

Results

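A set of 10 genes of the immediate early response was followed: the nuclear receptors Nr4a1, Nr4a2 and Nr4a3, the zinc finger factors Egr1, Egr2 and Egr3, the early response gene Ier2, the MAP kinase phosphatases Dusp1 and Dusp2, and the antiproliferative gene Btg2. They were listed by name and family, with earlier results of these data known but with no measured value in the rule, and make up 10 of the 20599 genes listed. All 10 had enough counts to be tested. RNA-Seq libraries of sorted peritoneal B1a cells (n = 2) and sorted splenic follicular B2 cells (n = 2) were compared. All 4 libraries carry the genotype label Wild-type and the strain label C57BL/6, and the labels name no treatment. Per the methods, the cells were sorted directly into a lysis buffer. Before the sort came cell suspension, red cell lysis, a viability stain at room temperature, Fc receptor block and antibody staining, which included IgM. The part of this handling in the values of these genes was not tested. The methods describe the donors as control animals, 2 mice per cell type, for a conditional Dnmt3a deletion in B cells that these libraries do not carry. B1a cells were sorted from peritoneal wash with a gate that included CD23- IgM+ CD5+, and follicular cells from spleen with one that included IgD-high IgM-low CD21+. The labels give an age of 4 weeks to every library, whereas the methods give an older age to the B2 donors. The effects of cell type, of tissue and, if the methods hold, of age on these values cannot be told apart.

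Immediate early genes are transcribed within minutes of a signal, without the need for new protein. In B cells, signaling from the antigen receptor through the ERK pathway, calcium and cAMP activates the factors SRF and CREB, which bind the promoters of EGR and NR4A genes. EGR proteins are zinc finger activators that bind GC-rich sites and are restrained by the NAB corepressors, and NR4A proteins are orphan nuclear receptors known to restrain the response of chronically stimulated lymphocytes. DUSP1 and DUSP2 are nuclear phosphatases that remove the activating phosphates from MAP kinases, and BTG2 recruits the CCR4-NOT deadenylase to shorten the life of messages.

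Promoter sequence is shown for the 2 called genes and for Nr4a2, Egr2 and Nr4a1, which were not called but had the largest absolute log2 fold changes among the other genes with a promoter window, so that the letters known to be read by CREB, EGR factors and SRF can be seen. RefSeq promoter windows of the GRCm38.p6 build, 300 bases long with 250 bases before the start site and 50 after, were found for 7 of the 10 genes, not for Egr1, Egr3 or Ier2. Capitals mark TGACGTCA, the palindromic cAMP response element, in Dusp1; GCGGGGGCG, a form of the EGR site, in Dusp2 and, on the reverse strand, in Nr4a1; TGACG or its reverse CGTCA, the core of the cAMP response element, in Nr4a2; and the CArG box bound by SRF in Egr2. Stretches annotated as exon are left out for Dusp1, Dusp2 and Nr4a2. Nr4a1 and Egr2 are given as 30 bases around the motif, without a check for annotated exons. Egr2 had 5 windows in the RefSeq table, of which a single window was used.
Dusp1, chr17:26508520-26508722, minus strand: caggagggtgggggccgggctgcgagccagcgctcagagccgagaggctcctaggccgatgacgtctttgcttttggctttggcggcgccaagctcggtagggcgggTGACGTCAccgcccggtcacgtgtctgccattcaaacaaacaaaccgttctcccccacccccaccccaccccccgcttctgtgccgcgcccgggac
Dusp2, chr2:127335909-127336158, plus strand: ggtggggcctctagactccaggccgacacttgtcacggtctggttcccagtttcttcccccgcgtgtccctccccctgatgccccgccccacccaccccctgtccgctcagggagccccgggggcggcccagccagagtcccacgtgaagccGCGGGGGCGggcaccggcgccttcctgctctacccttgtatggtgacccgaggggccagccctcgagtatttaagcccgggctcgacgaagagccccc
Nr4a2, chr2:57124004-57124253, minus strand: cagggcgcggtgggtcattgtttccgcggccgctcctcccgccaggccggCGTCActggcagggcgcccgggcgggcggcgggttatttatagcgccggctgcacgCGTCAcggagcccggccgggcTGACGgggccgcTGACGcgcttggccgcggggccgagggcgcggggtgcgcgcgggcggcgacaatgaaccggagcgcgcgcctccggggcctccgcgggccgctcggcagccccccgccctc
Nr4a1, chr15:101266776-101266805, plus strand: gcgtcagtggCGCCCCCGCccctctccatg
Egr2, chr10:67537787-67537816, plus strand: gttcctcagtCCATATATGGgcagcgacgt

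The palindrome TGACGTCA lay 143 bases before the start site of Dusp1. Btg2 held the same letters 166 bases before its start site, so that 2 of the 7 windows held it, against 1.79% of the 32851 windows in the RefSeq table. The core TGACG, searched on both strands and contained in the palindrome, occurred in 7 of 7 windows and in 20.8% of all windows. The windows of Nr4a1, Nr4a2 and Nr4a3 held it 4 times each. GCGGGGGCG was found 98 bases before the start of Dusp2 and 60 bases before the start of Nr4a1, and overlapped a GC box (GGGCGG) at both. That was 2 of 7 windows against 2.91% of all windows, while GCGTGGGCG, the other form of the EGR site, was in 0 of 7 against 0.612%. The NR4A site AAAGGTCA was in 0 of 7 windows against 1.51%, the CArG box in 1 of 7, that of Egr2, against 1.63%, and the GC box in 6 of 7 against 35.7%. The members' windows were rich in G and C, at 60% to 81.7% of bases against 53.8% over all windows. These matches describe letters in a window and do not show that a factor binds there. The genes lie apart, on chromosomes 1 (Btg2), 2 (Nr4a2 and Dusp2), 4 (Nr4a3), 8 (Ier2), 10 (Egr2), 14 (Egr3), 15 (Nr4a1), 17 (Dusp1) and 18 (Egr1).

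The count test of edgeR, its quasi-likelihood test with Benjamini-Hochberg adjustment over all 12078 genes tested, called 2 of the 10 genes at an adjusted p under 0.05. Dusp1 was higher in B1a cells, Dusp2 in B2 cells, and the other 8 genes did not pass. The count was 6 without B1a replicate 1 and 9 without B1a replicate 2, the replicates that lay farther apart, and the single remaining B1a library is then assumed to vary like the B2 replicates. The called share of the 10 genes was 20%, against 5.74% of all genes tested, of which 4.24% were called in the direction of B1a cells and 1.50% in that of B2 cells. This split of 512 and 181 genes depended on the scale and was 266 and 233 on log2(TPM + 1) in limma. Before adjustment, 7 of the 10 genes had a p under 0.05, against 20.9% of all genes. In 7 of the 10 genes both B1a values lay on one side of both B2 values, 4 with B1a higher and 3 with B2 higher, against 54.3% of all genes. The 10 genes had a median log2 fold change (B1a over B2) of 0.19, all genes one of -0.03, and the median absolute log2 fold change was 0.73 against 0.48. The signs were mixed, with 6 positive values among 10, that of Egr1 being 0.00. Since RNA was measured in bulk, fewer cells that express a gene and less RNA per cell cannot be told apart. The methods describe 2 mice per cell type, although the labels themselves do not say whether replicates came from separate animals. The p-values measure the spread between these samples, 2 per group.

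**Figure D1:**
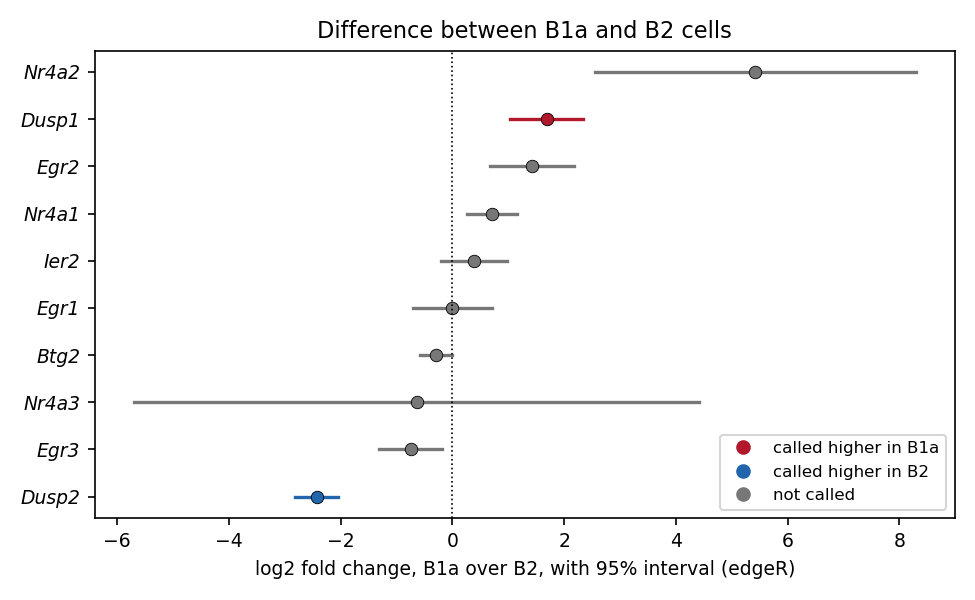
Fitted log2 fold change of each immediate early gene, B1a over B2 (x axis), with its 95% interval as a horizontal line and the call as color. Dusp1 at 1.69 and Dusp2 at -2.43 passed the test, while the interval of Nr4a3, from -5.70 to 4.42, spanned most of the axis.

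On a scale normalized for transcript length (TPM, a share of all transcripts scaled to the same total in every library), most of the genes were readily detected in both cell types. In B1a cells the order of mean levels was Ier2 at 297 TPM, Btg2 at 253 TPM, Dusp1 at 176 TPM, Egr1 at 135 TPM, Nr4a1 at 110 TPM, Egr3 at 81.1 TPM, Dusp2 at 75.3 TPM, Egr2 at 37.4 TPM, Nr4a2 at 11.5 TPM and Nr4a3 at 1.61 TPM. Neighbors whose replicates overlapped in this order were Ier2 with Btg2, Dusp1 with Egr1, and Egr3 with Dusp2. In B2 cells the order was Dusp2 at 479 TPM, Btg2 at 367 TPM, Ier2 at 269 TPM, Egr3 and Egr1 at 160 TPM each, Nr4a1 at 79.4 TPM, Dusp1 at 64.7 TPM, Egr2 at 16.5 TPM, Nr4a3 at 3.06 TPM and Nr4a2 at 0.30 TPM. In that order the replicates of Egr3 and Egr1 overlapped and those of the other neighbors did not. Dusp2 moved from the 83.5th percentile of genes with a count in B1a cells to the 98.3rd percentile in B2 cells, among 14693 such genes. The summed level of the 10 genes was 1195 and 1161 TPM in the B1a libraries and 1654 and 1542 TPM in the B2 libraries. Most of this gap lay in Dusp2, at 81.3 and 69.2 TPM in B1a and 490 and 467 TPM in B2. The sums therefore do not describe the set as a whole.

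**Figure D2:**
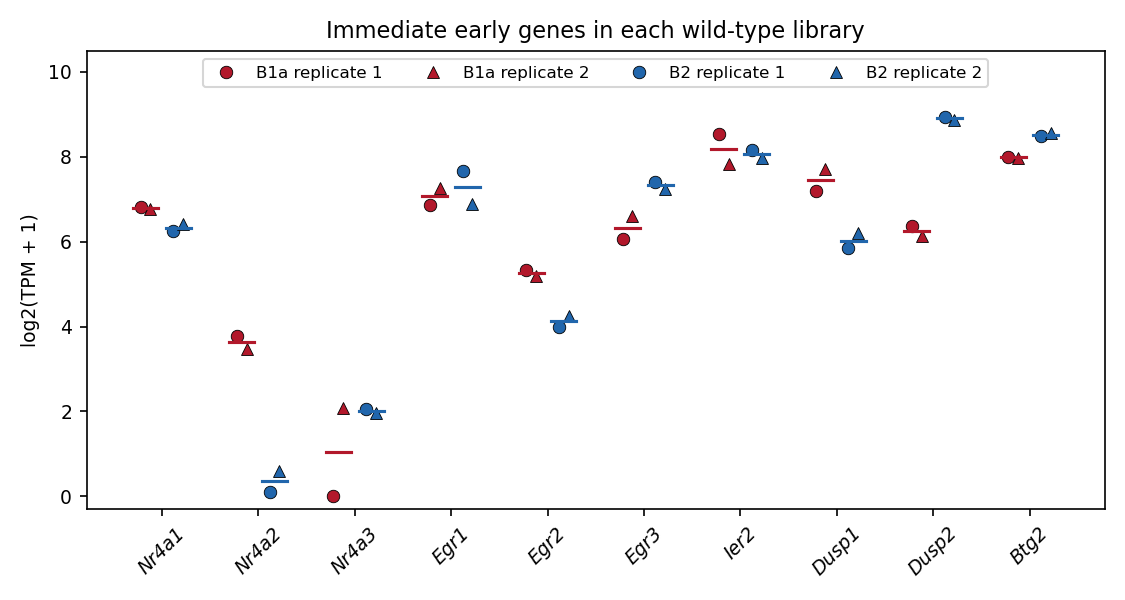
Level of each immediate early gene in the 4 wild-type libraries, as log2(TPM + 1) on the y axis, with circles and triangles for replicates 1 and 2 and a horizontal bar at the group mean. Dusp2 separated the groups widely (81.3 and 69.2 TPM in B1a, 490 and 467 TPM in B2), and Nr4a2 was near 0 in both B2 libraries.

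Dusp2 had the smallest adjusted p of the 10 genes. This phosphatase, also known as PAC-1, is induced in activated lymphocytes and acts on ERK and p38 in the nucleus. Its level was 54.4 and 47.5 CPM (counts scaled to a common library total after TMM normalization) in the B1a replicates and 279 and 270 CPM in the B2 replicates. Both B2 libraries were far above both B1a libraries, and replicates of a group lay close together. The means were 50.9 ± 4.90 CPM in B1a and 274 ± 5.93 CPM in B2 (SD, n = 2 each), a 5.38-fold higher level in B2 cells, with a log2 fold change of -2.43 (SE 0.16, 95% interval -2.82 to -2.04, edgeR adjusted p = 0.00159). It passed in 12 of 12 alternative analyses.

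Dusp1, the other phosphatase of the group, prefers p38 and JNK and is a classic stress and glucocorticoid response gene. Its level was 117 and 172 CPM in the B1a libraries, against 39.2 and 50.6 CPM in those of B2 cells. Both B1a libraries exceeded both B2 libraries, with the B1a replicates farther apart than the B2 replicates. Dusp1 was 3.22-fold higher in B1a cells (145 ± 39.0 against 44.9 ± 8.06 CPM, SD, n = 2 each), with a log2 fold change of 1.69 (SE 0.26, 95% interval 1.04 to 2.34, edgeR adjusted p = 0.0219). It passed in 11 of 12 alternatives, in which its adjusted p ranged from 4.02e-23 to 0.0599, the miss being the test on log2(TPM + 0.1). The summed level of 9 macrophage markers lay in the same direction, at 239 and 276 CPM in B1a and at 71.6 and 78.0 CPM in B2, and its part in the Dusp1 difference was not tested.

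The 2 phosphatases therefore lay in opposite order in the 2 cell types. The ratio of Dusp1 to Dusp2 in TPM, taken within each library, was 1.78 and 3 in the B1a replicates and 0.116 and 0.155 in the B2 replicates. Dusp1 exceeded Dusp2 in both B1a libraries and was below it in both B2 libraries. Dusp2 made up 35.9% and 25.0% of their summed TPM in B1a cells and 89.6% and 86.6% in B2 cells. The sum itself was 226 and 277 TPM in B1a and 547 and 540 TPM in B2. The difference in the log2 ratio was 4.11, and a two-sided exact permutation test gave p = 0.33, the smallest that 2 libraries against 2 allow. This and 2 further ratios given below were computed after the members' values were seen.

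Among the NR4A receptors, Nr4a1, which encodes NUR77 and is widely used as a reporter of antigen receptor signaling, was the most abundant in every library. Its level was 116 and 115 CPM in the B1a libraries, against 66.2 and 75.5 CPM in those of B2 cells. The groups did not overlap, and the log2 fold change was 0.71 (SE 0.18, 95% interval 0.27 to 1.15), which did not pass the test (edgeR adjusted p = 0.0922). It passed in 3 of 12 alternatives, in which its adjusted p ranged from 0.000826 to 0.846.

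Nr4a2, which encodes NURR1, had the largest fitted difference of the 10 genes. It was at 17.2 and 13.3 CPM in the B1a libraries, against 0.0867 and 0.575 CPM in those of B2 cells. These are 192 and 147.8 expected counts in B1a against 1 and 11 counts in B2, so the first B2 library was under the floor of 3 counts that stands for the smallest amount told from none. Both B1a libraries were above both B2 libraries, yet the fitted log2 fold change of 5.42 had a wide 95% interval of 2.56 to 8.29 and missed the threshold (SE 1.17, edgeR adjusted p = 0.0573). Nr4a2 passed in 5 of the 11 alternatives that could test it, with adjusted p from 1.76e-13 to 0.252 and log2 fold change from 3.28 to 7.28. Nr4a2 made up 10.3% and 8.36% of the summed NR4A level in TPM in the B1a replicates and 0.103% and 0.595% in the B2 replicates. The ratio of Nr4a2 to Nr4a1 in TPM was 0.115 and 0.0940 in B1a cells and 0.00107 and 0.00619 in B2 cells, where the first value rests on 1 count. With that count set to the floor of 3 counts, the ratio was 0.00321 and the difference in log2 ratio was 4.54 (two-sided exact permutation p = 0.33, the smallest possible).

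Nr4a3, encoding NOR1, was scarce in both cell types. It had 0 and 28.9 expected counts in the B1a replicates and 24.5 and 38 counts in the B2 replicates, which is 0, 2.61, 2.08 and 1.99 CPM. The 0 in the first B1a library allows up to 0.259 CPM on the raw total, before TMM normalization, a limit that covers counting error only. The second B1a library was above both B2 libraries. No difference could be read from Nr4a3: the log2 fold change of -0.64 had a 95% interval of -5.70 to 4.42 (edgeR adjusted p = 0.911). Without B1a replicate 1 the value was 0.36 (adjusted p = 0.855), and without B1a replicate 2, which leaves the library at 0, it was -7.83 and passed (adjusted p = 0.0254), the 1 of 11 alternatives that did.

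Egr1, the founding EGR factor, did not separate the cell types. Its level was 150 and 205 CPM in the B1a libraries, against 223 and 132 CPM in those of B2 cells. The B1a values lay between the B2 values. The means were 178 ± 38.8 and 178 ± 64.1 CPM (SD, n = 2 each) and the log2 fold change was 0.00, with a 95% interval of -0.70 to 0.71 that does not exclude a modest difference in either direction (edgeR adjusted p = 0.998). In TPM, Egr1 made up 52.4% and 53.9% of the summed EGR level in the B1a replicates and 52.1% and 41.2% in the B2 replicates.

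Egr2 and Egr3, which in lymphocytes are known for restraining responses to antigen, lay in opposite directions. Egr2 was at 49.3 and 45.6 CPM in the B1a libraries, against 16.0 and 19.5 CPM in those of B2 cells. The groups did not overlap and differed by a log2 fold change of 1.42 (SE 0.31, 95% interval 0.67 to 2.17), just outside the threshold (edgeR adjusted p = 0.0578). Egr2 passed in 7 of 12 alternatives, with adjusted p from 1.84e-07 to 0.556.

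Egr3 was at 106 and 163 CPM in the B1a libraries, against 238 and 212 CPM in those of B2 cells. Both B2 libraries were above both B1a libraries, and the log2 fold change of -0.74 (SE 0.23, 95% interval -1.31 to -0.18) did not pass (edgeR adjusted p = 0.145). It passed in 5 of 12 alternatives, with adjusted p from 1.48e-10 to 0.461. The ratio of Egr2 to Egr3 in TPM was 0.598 and 0.368 in the B1a libraries and 0.0879 and 0.120 in the B2 libraries. Egr3 was the more abundant of the pair in every library, and the groups did not overlap in the ratio, a difference of 2.19 in log2 ratio (two-sided exact permutation p = 0.33, the smallest possible). Egr2 and Egr3 made up 17.8% and 29.8% of the summed EGR level in B1a replicate 1, 12.4% and 33.7% in B1a replicate 2, 3.87% and 44.0% in B2 replicate 1, and 6.30% and 52.5% in B2 replicate 2.

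**Figure D3:**
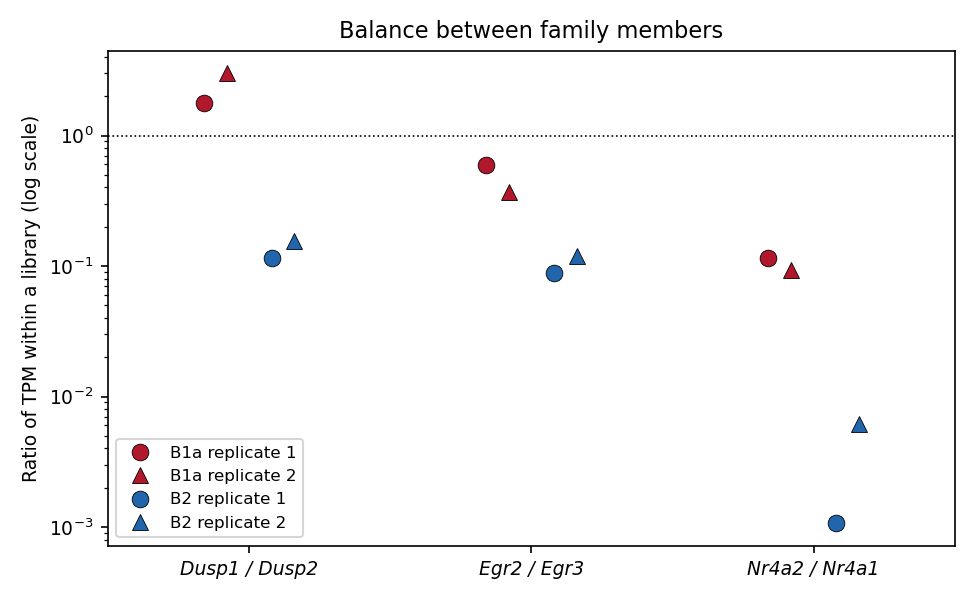
Ratio of 2 related genes in TPM within each library (y axis, log scale), with the dotted line at equal levels. Dusp1 over Dusp2 was 1.78 and 3 in B1a cells but 0.116 and 0.155 in B2 cells, the single pair of the 3 that crossed the line, and the lowest point, Nr4a2 over Nr4a1 in B2 replicate 1, rests on 1 count of Nr4a2.

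Ier2, a nuclear protein induced by growth factors and serum, was at 231 and 146 CPM in the B1a libraries, against 153 and 136 CPM in those of B2 cells. B1a replicate 1 stood above the other 3 libraries, and B1a replicate 2 lay between the B2 values. The log2 fold change of 0.38 had a 95% interval of -0.21 to 0.98 (edgeR adjusted p = 0.45). Btg2 was at 333 and 335 CPM in the B1a libraries, against 394 and 426 CPM in those of B2 cells. Although the groups did not overlap, the log2 fold change of -0.30 was small (95% interval -0.58 to -0.01) and did not pass (edgeR adjusted p = 0.222). Btg2 had the highest mean CPM of the 10 genes, and the tested genes whose profile over the 4 libraries lay nearest to it were Hps3, Dcp2, Rdx, Tm9sf1 and Usp20. Their Euclidean distances in centered log2 CPM were 0.0261, 0.0300, 0.0344, 0.0347 and 0.0392, a likeness over 4 libraries only.

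Genes of the surrounding pathways were read from 9 lists with 110 genes, of which 93 were tested and 18 were called, 12 in the B1a direction and 6 in the B2 direction. The called share was 19.4%, against 5.74% of all genes tested. Without B1a replicate 1 or 2 the count was 42 or 62. The lists were written with earlier results of these data known.

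Among the partners of EGR factors, Nab2, a corepressor that EGR proteins themselves induce, was at 28.2 and 26.9 CPM in B1a and at 73.0 and 78.8 CPM in B2. The B2 libraries were higher, with a log2 fold change of -1.46 (SE 0.23, edgeR adjusted p = 0.0234). Nab2 missed the threshold without B2 replicate 1 and without B2 replicate 2, at log2 fold changes of -1.52 and -1.41. In such fits the remaining B2 library is assumed to vary like the B1a replicates, which lay farther apart. The related corepressor Nab1 had a log2 fold change of -0.11 (edgeR adjusted p = 0.877). Egr4, the remaining EGR gene, was at 2.24 and 2.70 CPM in B1a cells and at 0 in both B2 libraries, and did not pass (edgeR adjusted p = 0.137), though it did in 3 of 11 alternatives (adjusted p from 0.0131 to 1). Of the 2 tested retinoid X receptor genes, partners of NR4A1 and NR4A2, edgeR called 0, with 0 at an unadjusted p under 0.05 and 0 by DESeq2 and limma-voom.

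In the ERK pathway and its relay to SRF and CREB, 2 of 16 tested genes were called and the median log2 fold change was -0.05. Rps6ka1, which encodes the ERK-activated kinase RSK1, was at 181 and 184 CPM in B1a and at 83.4 and 86.4 CPM in B2. Its log2 fold change was 1.11 (SE 0.15, edgeR adjusted p = 0.0135). Without B2 replicate 1 it was 1.08 and missed the threshold, with the B1a spread assumed for the remaining B2 library. Elk3, an SRF partner known mainly as a repressor, was at 44.6 and 35.1 CPM in B1a and at 95 and 98.4 CPM in B2, with a log2 fold change of -1.28 (SE 0.23, edgeR adjusted p = 0.0318). Elk3 missed the threshold on log2(TPM + 0.1) in limma (adjusted p = 0.0588). It also missed without B2 replicate 1 and without B2 replicate 2, at log2 fold changes of -1.31 and -1.26, under the same assumption on spread.

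The other dual specificity phosphatases were split, with 1 of 9 tested genes called higher in B1a cells and 2 called higher in B2 cells. Dusp10, a p38 and JNK phosphatase, was at 111 and 89.1 CPM in B1a and at 19.1 and 14.6 CPM in B2, 5.95-fold higher in B1a cells (log2 fold change 2.57, SE 0.27, edgeR adjusted p = 0.00632). Dusp4, a nuclear phosphatase of ERK, was at 2.24 and 1.53 CPM in B1a and at 36.7 and 25.5 CPM in B2, 16.4-fold higher in B2 cells (log2 fold change -4.04, SE 0.56, edgeR adjusted p = 0.0145). Dusp7, a cytoplasmic phosphatase of ERK, was at 18.4 and 28.9 CPM in B1a and at 93.9 and 76.9 CPM in B2 (log2 fold change -1.85, SE 0.31, edgeR adjusted p = 0.0275). Without B2 replicate 1, Dusp4 and Dusp7 missed the threshold, at log2 fold changes of -3.75 and -1.70. The B1a spread is then assumed for the remaining B2 library. Dusp4 also missed in limma-voom (adjusted p = 0.105). Dusp6, a further ERK phosphatase, was at 32.5 and 21.9 CPM in B1a and at 77.5 and 59.8 CPM in B2 without passing (edgeR adjusted p = 0.0725), and Dusp3 was at 66.1 and 65.3 CPM against 32.8 and 30.9 CPM (edgeR adjusted p = 0.0654). Dusp6 passed in 6 of 12 alternatives (adjusted p from 8.75e-10 to 0.591) and Dusp3 in 7 of 12 (adjusted p from 2.17e-05 to 0.693). Of the 4 tested JNK and p38 kinases, edgeR called 0 (0 at an unadjusted p under 0.05, 0 by DESeq2 and limma-voom), with a median log2 fold change of -0.12.

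Of the BTG and TOB family and the CCR4-NOT deadenylase, 1 of 11 tested genes was called. Btg1, the closest relative of Btg2 and a restraint on lymphocyte activation, was at 746 and 1040 CPM in B1a and at 1968 and 2129 CPM in B2, 2.29-fold higher in B2 cells (log2 fold change -1.20, SE 0.17, edgeR adjusted p = 0.0167).

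The list of other early response genes held most of the calls, 10 of 31 tested, all 10 higher in B1a cells, with a median log2 fold change of 0.37. Atf3, a stress-induced repressor of the ATF family, was at 392 and 309 CPM in B1a and at 1.04 and 1.10 CPM in B2 (log2 fold change 8.34, edgeR adjusted p = 0.0003). Pim1, a survival kinase, was at 450 and 425 CPM against 38.4 and 33.9 CPM (log2 fold change 3.60, edgeR adjusted p = 0.00054). Trib1, a pseudokinase scaffold, and Klf6, a zinc finger factor, had log2 fold changes of 3.47 (edgeR adjusted p = 0.00261) and 2.66 (edgeR adjusted p = 0.000683). The other called genes of the list were Klf4, Per1, Tnfaip3, Mcl1, Plk2 and Sik1. The macrophage and mast cell marker sums also lay higher in both B1a libraries (239 and 276 against 71.6 and 78.0 CPM, and 41.1 and 13.4 against 1.47 and 0.941 CPM), and their part in these calls was not tested. The RNA-binding proteins that destabilize early messages were not called, with log2 fold changes of -0.52 for Zfp36 (edgeR adjusted p = 0.0884), -0.23 for Zfp36l1 (edgeR adjusted p = 0.276) and -0.71 for Zfp36l2 (edgeR adjusted p = 0.0664). Under the alternatives, Zfp36l2 passed in 9 of 12 (adjusted p from 6.8e-15 to 0.0668), Zfp36 in 7 of 12 (adjusted p from 8.28e-07 to 0.579) and Zfp36l1 in 0 of 12 (adjusted p from 0.0688 to 1).

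Of 6 tested anergy-associated genes, among them targets of EGR2 and EGR3, 1 was called. Dgka, a diacylglycerol kinase that dampens signaling to ERK, was at 146 and 155 CPM in B1a and at 289 and 267 CPM in B2 (log2 fold change -0.89, SE 0.13, edgeR adjusted p = 0.0192). Without B2 replicate 1 its log2 fold change was -0.83 and missed the threshold, with the B1a spread assumed for the remaining B2 library. Of the 11 tested heat shock genes edgeR called 0 (2 at an unadjusted p under 0.05, 1 by DESeq2 and 0 by limma-voom), and their median log2 fold change was -0.20. B2 replicate 2 had the highest level of 9 of these 11 genes, and their listed sum was 4225 CPM there against 2411 CPM in B2 replicate 1. The share of all genes that were highest in B2 replicate 2 was not counted. The part of that library's heat shock level in the values of the immediate early genes was not tested.

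**Figure D4:**
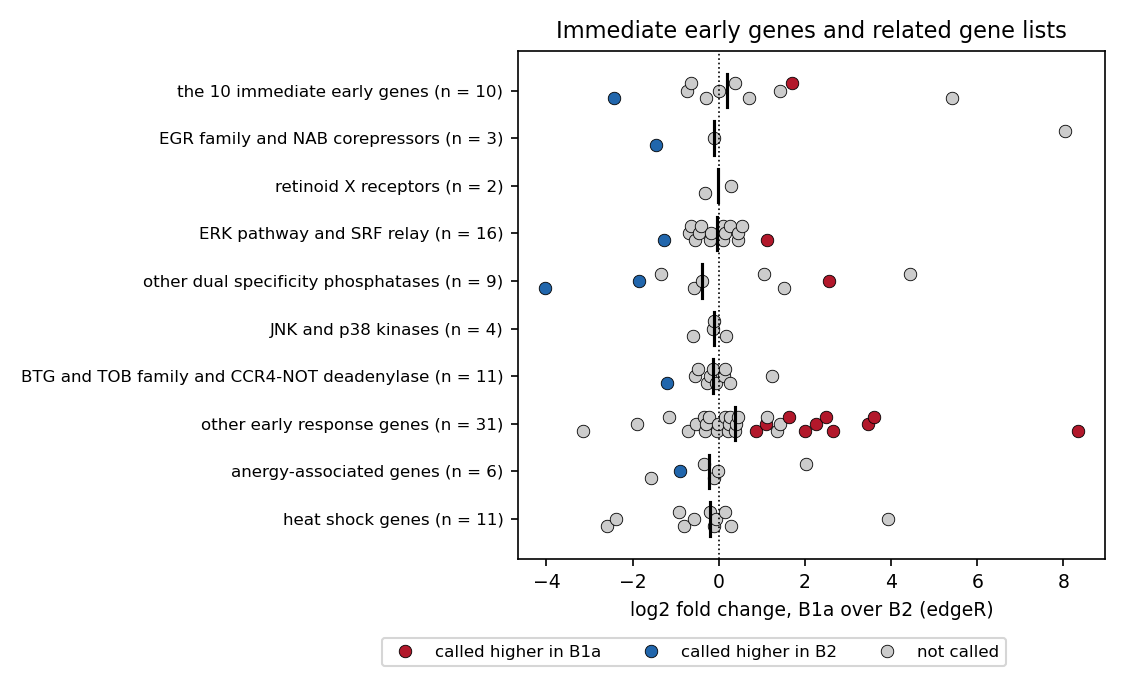
Fitted log2 fold change, B1a over B2 (x axis), of every tested gene of the 10 immediate early genes and of 9 related lists, with a vertical bar at each list's median and color for the call. The 10 called genes among other early response genes all lay to the right, and the point of Egr4 at 8.04 has 0 counts in both B2 libraries, so its position depends on the fit's prior count.

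The totals lay between 11032732 and 18588623 counts per library. On these raw totals, before TMM normalization, 3 counts correspond to 0.161 to 0.272 CPM. B1a replicates were farther apart than B2 replicates, with a median ratio between replicates of 1.33 against 1.13 over tested genes averaging 10 CPM or more. The 5 B cell markers had a count in every library, and the markers lay on the side of their labels. The sum of 4 B1a markers was 1034 and 766 CPM in B1a and 69.3 and 73.4 CPM in B2. That of Fcer2a and Cr2 was 162 and 153 CPM in B1a and 1902 and 1942 CPM in B2. Cd5, Fcer2a (CD23) and Cr2 (CD21) belong to the sort gates, so their direction is no independent check of identity. Cd5 itself was at 15.9 and 22.4 CPM in B1a and at 5.46 and 2.25 CPM in B2, and was not called (edgeR adjusted p = 0.146). Markers of 9 genes for macrophages, cells that also express early genes, summed to 239 and 276 CPM in the B1a libraries and to 71.6 and 78.0 CPM in the B2 libraries. Of these, 7 of 9 were higher in both B1a libraries, 1 (Lyz2, at 127 and 136 against 16.8 and 27.2 CPM) was called, and Cd14 was at 0 in B2 replicate 2. Mast cell markers, 4 genes, summed to 41.1 and 13.4 CPM in B1a and to 1.47 and 0.941 CPM in B2, with 3 of the 4 at 0 in each B2 library, and 1 was called. T cell markers, 8 genes of which edgeR called 0 (2 at an unadjusted p under 0.05, 2 by DESeq2, 0 by limma-voom), summed to 108 and 71.6 CPM in B1a and to 89.0 and 86.6 CPM in B2, and erythroid markers, 5 genes, to 78.8, 504, 36.1 and 80.8 CPM in the order B1a replicates 1 and 2 and B2 replicates 1 and 2. Of the erythroid genes, 1 was called, Hba-a2, at 35.6 and 96.6 CPM in B1a and at 5.03 and 7.48 CPM in B2 (edgeR adjusted p = 0.0278). Neutrophil markers summed to 0 CPM in both B1a libraries and to 1.21 and 6.64 CPM in the B2 libraries, and mesothelial markers to 0, 0, 0.607 and 0 CPM. The part of these other cells in the values of the members and the related lists was not tested.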

How the data were processed

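The 4 RNA-Seq libraries, 2 of B1a and 2 of follicular B2 cells, were grouped by their labels. The extraction and library kits are given by the labels as a Qiagen micro kit and a Kapa kit with ribosomal RNA depletion, whereas the paper describes a stranded Kapa kit and selection of polyadenylated RNA, so which RNAs the TPM total covers is not settled. Per the submitters' processing notes, the authors used bcl2fastq, mm10 and RSEM 1.2.29, and the version in the methods differs. Per library the authors deposited one expected count per gene entry (21970 entries), without normalization, dividing reads that match several entries. The authors also deposited TPM, scaled to the same total in each library, and a signal value, the posterior SD of each count, which was at most 1.73 counts for the 10 genes. Deposited FPKM values were not used. Each of the 10 genes had a single entry. The Dnmt3a-deficient samples were not used here.

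Entries of a symbol were added up, expected counts were rounded to whole numbers, low genes were removed by filterByExpr, libraries were normalized by TMM (factors 0.964, 0.963, 1.05 and 1.03) and genes were tested with edgeR 4.0.16 in R 4.3.3 (quasi-likelihood test, Benjamini-Hochberg adjustment over all genes tested, threshold 0.05). The biological coefficient of variation was 0.507. Standard errors were derived from the F statistic. The study's methods name EBSeq, which was not run here. Ratios were compared by exact permutation (scipy 1.17.1). Alternatives were DESeq2 1.42.0, limma-voom (limma 3.58.1), upper quartile factors, a minimum of 10 counts in each library, no filter beyond 1 count, limma on log2(TPM + 1) and log2(TPM + 0.1) where the mean TPM reached 1, a replicate block, and each library left out in turn. The tests were tested on simulated data. The members, the lists and the tests were chosen with earlier results of these data known. All members are described. From each list, genes were taken from the called genes (at most 4, by absolute log2 fold change) and the 3 uncalled genes with the highest mean CPM. As exceptions, Egr4, the remaining called early response genes and the marker genes Lyz2, Cd14, Hba-a2 and Cd5 were named after their values were seen. The profile nearest to the member with the highest mean CPM was sought among tested genes of at least 10 CPM. The marker Adgre1 was matched as Emr1, and Ly6g was not analyzed here. Start sites and promoters came from RefSeq on GRCm38.p6.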

Additional observations from a re-analysis of the deposited data

How the results depend on the processing

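The number of called genes depended on the tool and on the B1a libraries. Over all genes it was 693, against 1550 with DESeq2, 1141 without a filter beyond 1 count, 359 on log2(TPM + 0.1) and 1481 with the replicate block. Leaving out a library gave 539 to 6143 calls, 3953 without B1a replicate 1 and 6143 without B1a replicate 2, where the remaining B1a library is assumed to vary like the B2 replicates. Of the 10 immediate early genes, 2 were called, against 6 with DESeq2, 5 without a filter, 1 on log2(TPM + 0.1), 5 with the replicate block, and 2 to 9 with a library left out (6 without B1a replicate 1 and 9 without B1a replicate 2). Of the related genes, 18 were called, against 29 with the replicate block and 14 to 62 with a library left out (42 and 62 without B1a replicates 1 and 2). The cause was not tested. The sample titles number the replicates and do not say whether same-numbered libraries share a donor or a preparation. The correlation of same-numbered deviations from the group means was -0.0347, a single value over 4 libraries that cannot decide it.

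The 10 genes' median log2 fold change, 0.19, ranged from 0.03 to 0.45 with a library left out and was -0.05 on both TPM scales, which moved the median of all genes to -0.30 and -0.32 and the split of calls toward B1a and B2 from 512 and 181 to 266 and 233 and to 196 and 163. Of 118 values of single members under alternatives, 88 kept their direction and their side of the threshold, 23 newly passed, 1 no longer passed (Dusp1) and 6 changed sign. Egr1 changed to -0.07 with upper quartile factors, to -0.21 on both TPM scales, to -0.24 without B1a replicate 2 and to -0.33 without B2 replicate 2, between -0.33 and 0.43 with a library left out, and Nr4a3 changed to 0.36 without B1a replicate 1, between -7.83 and 0.36. Among related genes, Nab1 changed to 0.14 without B1a replicate 2 and to 0.02 without B2 replicate 2 (range -0.42 to 0.14), and Elk4 to -0.09 on both TPM scales. Nr4a2 and Nr4a3 were not tested where at least 10 counts in every library were required. Depth limits Nr4a3, Nr4a2 in B2 cells and Egr4, which had few counts.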

Other observations

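B2 replicate 2 had the highest level of 9 of the 11 tested heat shock genes, and the like share over all genes was not counted. The chaperone gene Hspa1a was at 3.14 and 5.40 CPM in the B1a libraries, against 5.38 and 38.9 CPM in those of B2 cells, Hspa1b at 17.9 and 8.72 CPM and at 16.4 and 145 CPM, and Dnaja1, a cochaperone gene, at 112, 144, 143 and 304 CPM in the same order. These genes were named after their values were seen and did not pass the edgeR test (adjusted p = 0.256, 0.209 and 0.281). The other 2 tested heat shock genes were highest in B1a replicate 2. Hsp90ab1 was at 1247 and 1462 CPM in the B1a libraries and at 946 and 1273 CPM in those of B2 cells. Bag3, also named after its values were seen, was at 5.29 and 11.6 CPM and at 1.13 and 0 CPM. Hspa1a and Hspa1b share near-identical sequence. In B2 replicate 2, Egr1 was at 132 CPM, the lowest of the 4 values, and Dusp1 at 50.6 CPM, above B2 replicate 1.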
